A study of Mus musculus with 12 samples.

Results

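CD8+ T cell fractions taken from B16-F10-OVA tumors were set against melanoma cells sorted from B16-F10 tumors, 3 libraries a side, which are 6 of the 12 bulk RNA libraries of the series. The libraries of each side were taken by title, OVA-T on one side and B16-F10 on the other. The pair itself was chosen with earlier results of these data known, among them raised interferon gamma response genes in both groups. B16-F10 is a pigmented mouse melanoma line. In the melanoma group it carried a lentiviral GCaMP6s calcium reporter under the EF1A promoter with puromycin selection, and the cells were sorted by FACS for that reporter. The T cell group was labelled CD8+ T lymphocytes of C57BL/6J-OT-I genotype, whose transgenic receptor recognises an ovalbumin peptide. These cells had been activated with anti-CD3/anti-CD28 Dynabeads, given to mice bearing tumors of the same line with an added EF1A ovalbumin lentivirus (neomycin selection), and recovered with CD8 bead positive selection. All tumors grew in NOD-SCID mice, which lack T and B cells of their own, all mice received OT-I cells, and tumors were dissociated 2 days after transfer. The other 6 libraries served as the reference for each side: T fractions from B16-F10 tumors, and melanoma cells sorted from B16-F10-OVA tumors. Whether each of the 3 libraries is its own mouse is not given, so a p-value here weighs differences against library-to-library spread that may be only technical.

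Interferon gamma is a cytokine made by activated T cells and NK cells. It binds the receptor chains Ifngr1 and Ifngr2, and the kinases Jak1 and Jak2 activate transcription factors that bind gamma-activated sites (GAS). Irf1, itself a target, then binds interferon-stimulated response elements (ISRE) in a further layer of genes. In melanoma the pathway is known for raising antigen presentation, the chemokines that attract T cells, and the checkpoint ligand PD-L1.

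Library totals ran from 17203672 to 24267494 counts in the OVA T group and from 18948947 to 23213586 in the B16-F10 melanoma group. The 4 groups are called OVA T, B16 T, B16 melanoma and OVA melanoma below. Levels are CPM, counts scaled to the library total, and n is 3 libraries in every group. Fold changes come from edgeR fits with TMM scaling. That scaling lifted the median log2 of OVA T over B16 melanoma to 0.07, from -0.26 with total counts alone, so a ratio of CPM can differ from the fitted fold by this shift.

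The markers matched the melanoma label and matched the T label only in part. Pmel (ENSMUSG00000025359), a melanosome protein, stood at 5358, 5354 and 5372 CPM in the B16 melanoma libraries and at 21.2, 18.6 and 21.0 CPM in the OVA T libraries. Gzmb (ENSMUSG00000015437), the cytotoxic protease granzyme B, stood at 1646, 1613 and 1612 CPM in the OVA T libraries and at no more than 0.158 CPM in the B16 melanoma libraries. The groups were thus far apart for both genes. Beyond these, 12 T cell markers summed to 936 ± 2.01 CPM (SD, n = 3) in OVA T, but 10 endothelial markers summed to 8871 ± 33.2 and 10 fibroblast markers to 5421 ± 44.6 CPM in the same libraries, and macrophage markers to 265 CPM. In the B16 melanoma libraries the T cell markers summed to 4.64 ± 0.339, endothelial markers to 23.8, fibroblast markers to 85.5 and macrophage markers to 13.1 CPM, against 22215 ± 45.8 for 10 melanoma markers. The OVA T libraries are therefore a CD8-selected fraction with much RNA of other tumor cells, and in bulk RNA fewer cells of a type and less RNA per cell cannot be told apart. The reference groups differed in the same lists: T cell markers summed to 947 CPM in B16 T, close to OVA T, whereas the T fractions were not alike in other lists. Neutrophil markers summed to 73.6 CPM in OVA T and 42.3 in B16 T, with 5 of 6 genes higher (21.8% of all genes), melanoma markers to 102 and 233, and erythroid markers to 94.8 and 135 CPM, and their part in the OVA T over B16 T values was not tested. OVA melanoma held 9231 CPM of melanoma, 1840 of macrophage, 3834 of endothelial and 129 of T cell markers. The count table was not searched for the transgenes, so the line labels were not checked by them.

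**Figure D1:**
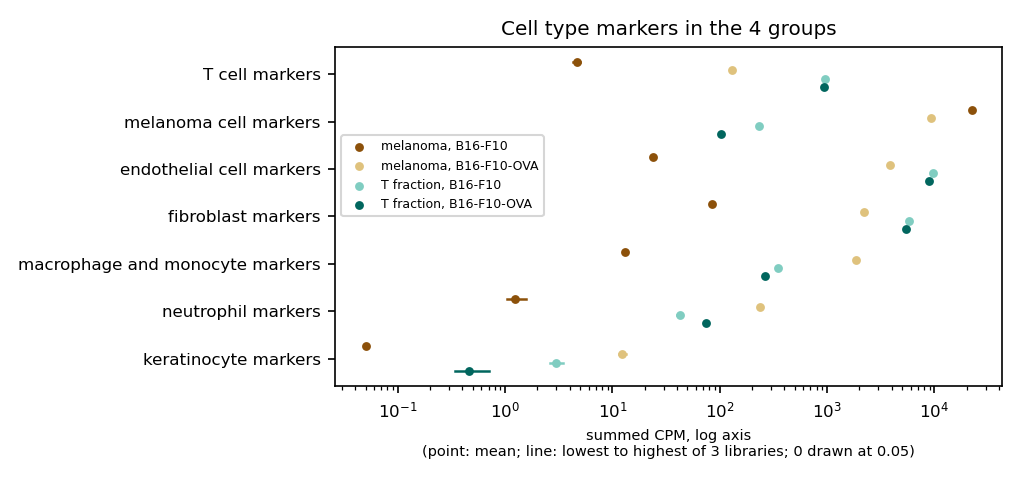
Summed CPM of 7 marker lists (log axis) in the 4 groups; points are means and lines run from the lowest to the highest of 3 libraries. Endothelial and fibroblast markers in both T fractions lie above the T cell markers (8871 and 5421 against 936 CPM in OVA T), and the B16 melanoma libraries are lowest in every list but the melanoma markers.

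Compared directly, OVA T libraries held more RNA of nearly every interferon-induced gene than B16 melanoma libraries, although most of these genes were present on both sides. Of 177 interferon-pathway genes found in the table, 140 (79.1%) reached 1 CPM in every library of both groups, against 61.2% of all tested genes. Another 11 (6.21%, with 6.94% of all genes) were present in OVA T and under 0.2 CPM in every B16 melanoma library, and 0 were present in B16 melanoma alone (1.28% of all genes). In the edgeR fit, 164 of 176 tested members (93.2%) were higher in OVA T and 8 (4.55%) were higher in B16 melanoma, where the fit over all 17633 genes called 45.7% and 41.9%. The median log2 difference was 2.48 over the members and 0.07 over all genes.

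The genes present on the T side alone included the cytokine itself. Ifng stood at 317, 322 and 307 CPM in OVA T and had 0 counts in all 3 B16 melanoma libraries, which makes it at least 6661-fold higher when the melanoma group as a whole is assigned 3 counts. Il12rb2 and Il18r1, receptor chains through which IL-12 and IL-18 drive interferon gamma production, belonged to the same class, as did the checkpoint ligand Pdcd1lg2, the tryptophan-degrading enzyme Ido1, the death receptor Fas, and Ifit1bl1, Ifitm1, Slfn1, Ifi209 and Aim2. The receptor and its kinases were on both sides: Ifngr1 averaged 185 ± 2.30 CPM in OVA T and 27.8 ± 0.710 in B16 melanoma, Ifngr2 72.9 ± 1.89 and 48.3 ± 0.787, and Jak1 607 ± 3.06 and 155 ± 2.92. So the melanoma libraries held RNA for the receptor with no RNA for the ligand detectable at this depth. The 8 genes higher in B16 melanoma were Gbp11, Apol6, Apol9a, Apol9b, the oligoadenylate synthetase Oas1g, Ifi27, Parp11 and the IL-1 family cytokine Il18.

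**Figure D2:**
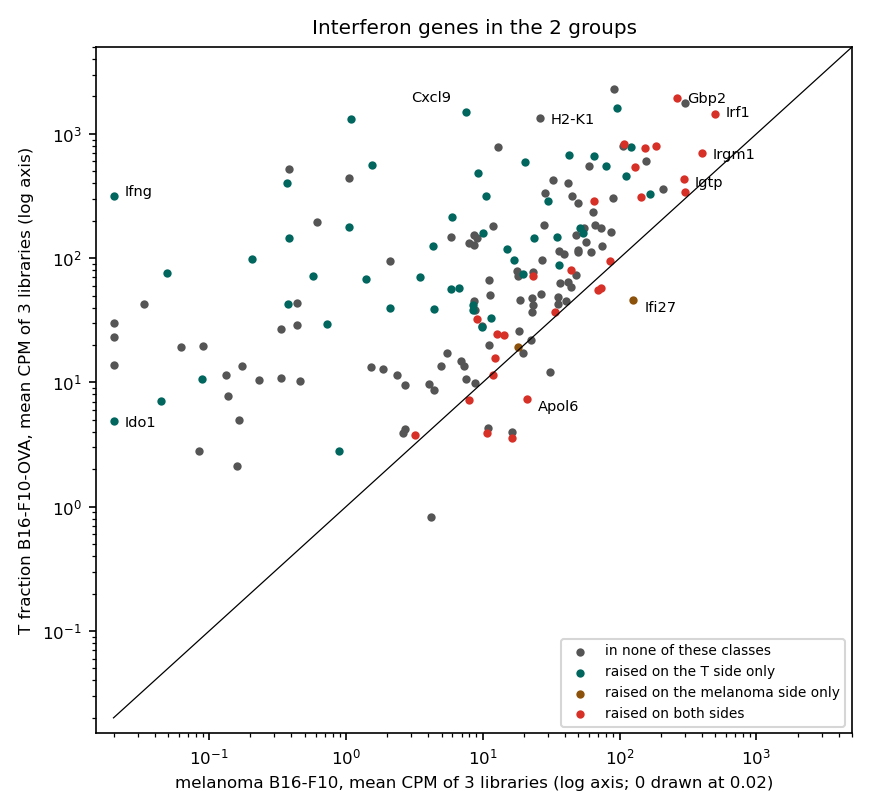
Mean CPM of each interferon-pathway gene in B16 melanoma (horizontal) and OVA T (vertical), both log axes, coloured by class; the line marks equal CPM. Most of the 176 tested genes lie above the line, Ifng at 0 counts in B16 melanoma is drawn at the left edge, and Apol6 and Ifi27 lie below the line.

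The next question was which interferon genes were raised in each group over the other group of the same cell fraction. The T rise is the log2 fold change of OVA T over B16 T, and the melanoma rise that of B16 melanoma over OVA melanoma; the 2 rises share no library. On the T side 147 of 176 members (83.5%) were higher and 12 (6.82%) lower, where 21.8% and 20.2% of all genes were called. Beyond 1.5-fold these were 87 (49.4%) and 1, where 3.58% and 2.42% of all genes passed. On the melanoma side 54 members (30.7%) were higher and 114 (64.8%) lower, where 34.3% and 43.8% of all genes were called, and beyond 1.5-fold 31 (17.6%) and 95 (54.0%), where 11.4% and 29.6% passed. The members as a whole were thus up on the T side, whereas on the melanoma side more were down than up. A gene was called shared when both rises exceeded 1.5-fold (edgeR's test against that fold, adjusted p under 0.05). A gene was called one-sided when 1 rise did so, the other was not called higher even against no change, and the difference of the rises passed in that direction. Of 176 tested members, 27 (15.3%) were shared, 48 (27.3%) were raised on the T side only and 2 (1.14%) on the melanoma side only, where these classes held 0.404%, 2.88% and 7.77% of all 18562 genes. The other 99 fell in no class. Because the pair was chosen with raised interferon genes in both groups known, the shared count only describes the class. The median T rise of the members was 0.69 against -0.01 for all genes, and the median melanoma rise was -0.87 against -0.10. The sum of the 2 rises, which is the interaction of line label and cell fraction, was called above 0 for 73 members and below 0 for 87, where 27.7% and 41.3% of all genes were called.

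**Figure D3:**
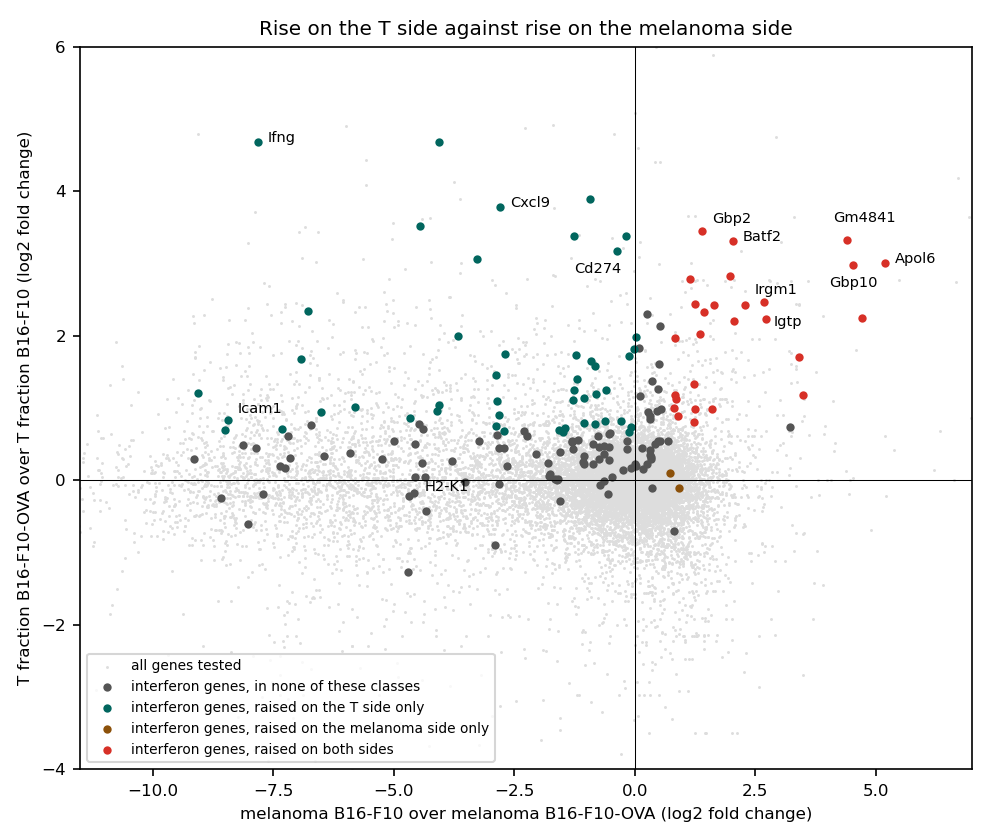
T rise (vertical) against melanoma rise (horizontal), log2, for all tested genes (grey; 156 lie outside the plotted range) and the interferon genes, coloured by class. The 27 shared genes lie in the upper right, with Apol6 at 3.00 and 5.19, and Ifng lies at the upper left, where its horizontal place, like that of other genes with few or 0 counts in B16 melanoma, depends on the prior count of the fit.

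Shared genes were concentrated among the immunity-related GTPases, which attack the vacuoles of intracellular parasites. Of the 11 tested, 9 were shared, and 11 passed the 1.5-fold test in the T rise. Igtp (Irgm3; ENSMUSG00000078853) stood at 291, 297 and 299.5 CPM in B16 melanoma and at 39.3, 38.7 and 40.6 CPM in OVA melanoma. On the T side it stood at 441, 436 and 433 CPM in OVA T and at 98.7, 96.7 and 93.6 CPM in B16 T. Both groups were thus above both reference groups with no overlap, by 2.24 ± 0.02 (log2, SE) on the T side and 2.72 ± 0.03 on the melanoma side (edgeR adjusted p = 1.3e-30 and 3.4e-32). The regulatory GTPase Irgm1 rose almost equally, by 2.43 ± 0.02 and 2.29 ± 0.03, from 136 to 703 CPM on the T side and from 71.4 to 398 CPM on the melanoma side. Its partner Irgm2 rose by 2.20 and 2.06. Gm4841, a further member, had the largest smaller rise of the list, 3.33 on the T side and 4.41 on the melanoma side, at levels of 24.3 ± 0.998 and 12.7 ± 0.654 CPM in the 2 groups. Tgtp1, Tgtp2, Ifi47, Iigp1c and F830016B08Rik completed the 9. When libraries were scaled to cell markers, the melanoma rise of Ifi47 turned from 0.84 to -0.25. Those of Tgtp1 and Tgtp2 came to 0.16 and 0.36, and all these genes left the shared class. Gm12250 (Irgb10) was not analysed as a member because its symbol stands on 2 identifiers, 1 of which is described below.

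The guanylate-binding proteins, GTPases that coat and lyse pathogen vacuoles, were split. Of 11 tested, 5 were shared (Gbp2, Gbp4, Gbp6, Gbp10 and Gbp11) and 4 were raised on the T side only. Scaled to cell markers, Gbp2, Gbp4 and Gbp6 had melanoma rises of 0.31, 0.06 and 0.56 and left the shared class. Gbp10 stood at 70.8, 70.4 and 68.4 CPM in B16 melanoma and at 3.10, 2.45 and 2.29 CPM in OVA melanoma. In OVA T it stood at 53.9, 52.2 and 58.9 CPM, and in B16 T at 6.01, 7.18 and 8.97 CPM. The 2 groups were close to each other and far above their references, and the direct difference was -0.01 ± 0.04 (edgeR adjusted p = 0.78), although by CPM alone the melanoma libraries were higher without overlap. Gbp2 was shared but unequal: it stood at 1973, 1949.9 and 1962 CPM in OVA T and at 259.7, 267 and 259 CPM in B16 melanoma, with rises of 3.46 ± 0.02 and 1.40 ± 0.02. Gbp11 leaned the other way, rising by 2.24 ± 0.24 to 3.92 CPM on the T side and by 4.73 ± 0.28 to 10.7 CPM on the melanoma side. Close copies in this family, such as Gbp6 and Gbp10, and likewise Tgtp1 and Tgtp2 or Apol9a and Apol9b, may divide reads in a way that the counting settings, not given in the sources used here, would decide, so their separate values are uncertain.

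Of the 17 signalling factors 4 were shared. Irf1 stood at 485, 503 and 501 CPM in B16 melanoma and at 174, 172 and 169.8 CPM in OVA melanoma, and it reached 1443, 1435 and 1420.2 CPM in OVA T over 367 ± 8.43 in B16 T. Its rises were 2.03 ± 0.02 and 1.35 ± 0.02, but scaled to cell markers the melanoma rise was 0.26, outside the shared class. Batf2, a transcription factor of interferon-activated myeloid cells, rose by 3.31 and 2.03, to 71.8 and 23.2 CPM. Ciita, the master activator of MHC class II genes, rose by 0.89 ± 0.10 and 0.90 ± 0.09, to 11.5 ± 0.0344 and 11.8 ± 1.25 CPM, the melanoma rise turning to -0.19 when libraries were scaled to cell markers. These 3 factors were up on both sides with the main scaling. Among ligands and receptors, 1 of 9 tested was shared: Il12rb1, the common IL-12 receptor chain, rose by 0.98 and 1.61. Its melanoma rise was 0.52 with marker scaling, also outside the shared class.

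To show the sequence context of shared and T-side genes, the 250 bases upstream of the transcription start were read for 4 shared genes (Igtp, Irgm1, Irf1, Gbp2) and 2 T-side genes (Gbp5, Cxcl10) from the RefSeq promoter table, build GRCm38.p6. Capitals mark matches to TTCNNNGAA (a GAS) or to GAAA, any 2 bases, GAAA (an ISRE), on either strand, and each sequence runs 5′ to 3′ along its gene. The windows lie at chr11:58199306-58199555 (plus strand) for Igtp, chr11:48871421-48871670 (minus) for Irgm1, chr11:53769764-53770013 (plus) for Irf1, chr3:142620413-142620662 (plus) for Gbp2, chr3:142496684-142496933 (plus) for Gbp5 and chr5:92348890-92349139 (minus) for Cxcl10.
Igtp: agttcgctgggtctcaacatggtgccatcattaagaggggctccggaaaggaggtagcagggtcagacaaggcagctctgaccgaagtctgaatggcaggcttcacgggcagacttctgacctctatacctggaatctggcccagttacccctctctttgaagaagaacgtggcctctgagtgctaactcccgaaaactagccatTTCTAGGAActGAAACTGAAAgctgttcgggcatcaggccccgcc
Irgm1: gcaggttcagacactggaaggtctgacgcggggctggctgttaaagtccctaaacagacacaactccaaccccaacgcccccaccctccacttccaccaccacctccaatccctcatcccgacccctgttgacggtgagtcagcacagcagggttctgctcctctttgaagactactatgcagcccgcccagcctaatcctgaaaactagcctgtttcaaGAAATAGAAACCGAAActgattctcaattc
Irf1: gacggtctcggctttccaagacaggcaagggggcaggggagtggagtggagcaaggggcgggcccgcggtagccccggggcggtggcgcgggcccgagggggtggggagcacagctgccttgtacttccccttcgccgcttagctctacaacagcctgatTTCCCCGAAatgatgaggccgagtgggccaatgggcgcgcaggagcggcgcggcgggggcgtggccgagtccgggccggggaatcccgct
Gbp2: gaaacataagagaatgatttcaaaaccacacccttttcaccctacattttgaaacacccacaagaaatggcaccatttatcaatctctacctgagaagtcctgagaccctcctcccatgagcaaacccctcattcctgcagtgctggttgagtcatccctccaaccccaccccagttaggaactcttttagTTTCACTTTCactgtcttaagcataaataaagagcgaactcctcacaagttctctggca
Gbp5: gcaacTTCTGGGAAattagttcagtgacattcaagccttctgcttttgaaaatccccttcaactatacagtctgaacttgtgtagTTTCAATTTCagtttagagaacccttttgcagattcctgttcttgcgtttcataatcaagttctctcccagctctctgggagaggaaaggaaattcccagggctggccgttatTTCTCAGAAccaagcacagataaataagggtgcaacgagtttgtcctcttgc
Cxcl10: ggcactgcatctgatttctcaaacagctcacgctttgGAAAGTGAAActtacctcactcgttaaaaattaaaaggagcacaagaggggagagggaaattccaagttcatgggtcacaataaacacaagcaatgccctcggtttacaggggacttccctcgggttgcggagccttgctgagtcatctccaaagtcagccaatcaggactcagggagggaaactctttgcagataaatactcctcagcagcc

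The Igtp window holds a GAS starting 45 bases before the start and an ISRE at 34 bases, Irgm1 holds a pair of overlapping ISRE matches at 30 and 24 bases, Irf1 holds a GAS at 90 bases (a further Irf1 window of the table, at chr11:53770223-53770472, holds neither motif), and Gbp2 an ISRE at 59 bases. Gbp5 holds GAS matches at 245 and 52 bases and an ISRE at 165 bases, and Cxcl10 an ISRE at 213 bases. Of the 27 shared genes, 14 matched the table with 16 windows, of which 5 (31.2%) held a GAS and 9 (56.2%) an ISRE. Of the 48 T-side genes, 36 matched with 41 windows, of which 10 (24.4%) held a GAS and 13 (31.7%) an ISRE. All 32851 windows of the same length held these letters in 7.02% and 2.98%. The Nmi window, the single match on the melanoma side, held neither. A match describes letters and not occupied sites.

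The apolipoprotein L genes Apol6, Apol9a and Apol10b, a family of lipid-binding proteins in cell death and host defence, were shared, and Apol6 and Apol9a rose more on the melanoma side. Apol6 stood at 21.1, 22.4 and 20.2 CPM in B16 melanoma and at 0.421, 0.533 and 0.603 CPM in OVA melanoma. In OVA T it stood at 7.21, 6.92 and 7.85 CPM, over 0.777, 1.47 and 0.581 in B16 T. Its rises were 5.19 ± 0.24 on the melanoma side and 3.00 ± 0.22 on the T side, and it was lower in OVA T than in B16 melanoma by the direct fit (-1.20 ± 0.08, edgeR adjusted p = 5.4e-13). Apol9a rose by 3.49 and 1.17, and Apol10b by 2.69 and 2.47, a difference that did not pass. A further 5 antiviral genes made up the rest of the shared class. The nucleic acid sensor Zbp1 rose by 1.13 on the T side and 0.86 on the melanoma side, the ubiquitin ligase Herc6 by 0.99 and 1.26, Ifit3 by 1.18 and 0.85, Parp12 by 1.01 and 0.81 and the antibody receptor Trim21 by 1.34 and 1.24. The melanoma rises of Zbp1, Ifit3 and Parp12 did not keep their sign under marker scaling, and those of Herc6 and Trim21 came to 0.17 and 0.15.

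**Figure D4:**
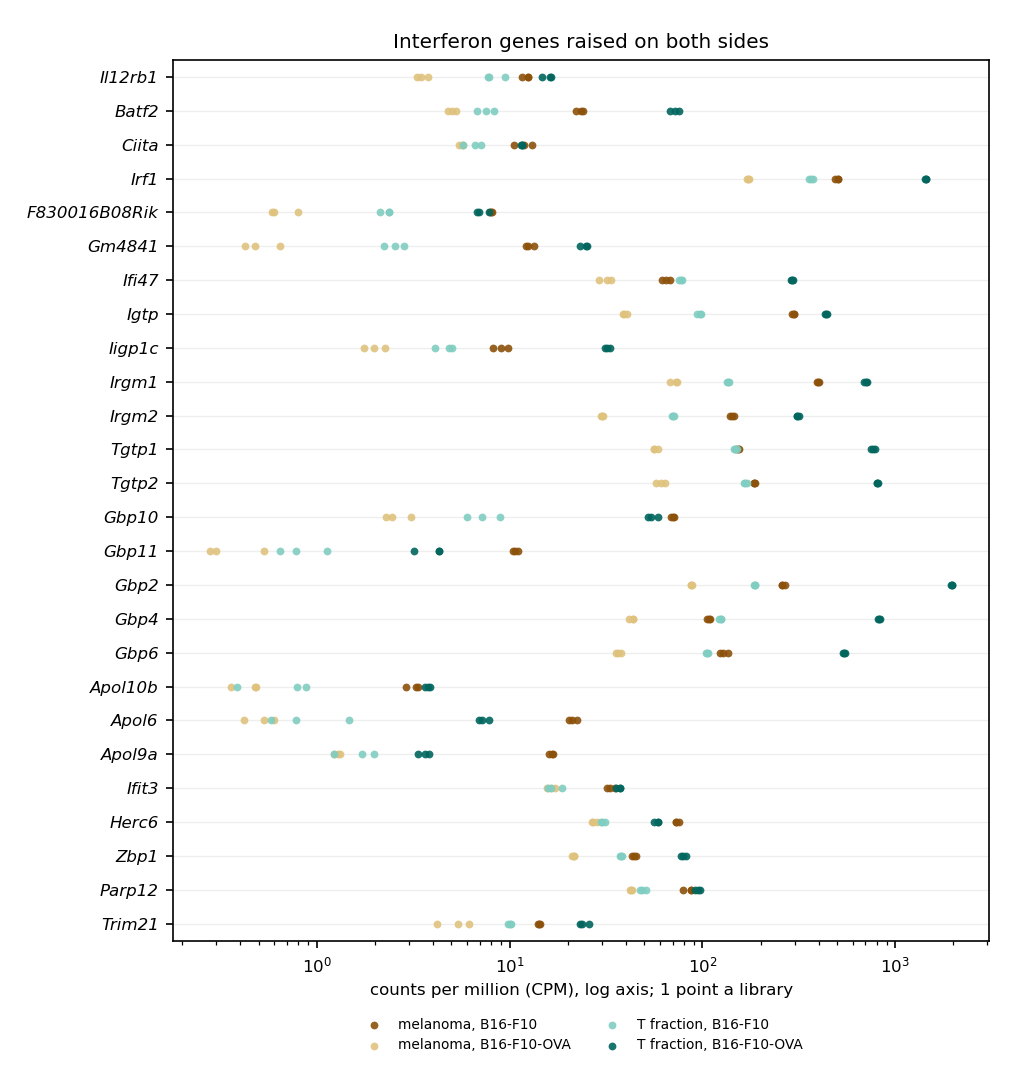
CPM (log axis) of 26 of the 27 shared interferon genes in all 12 libraries, 1 point a library, coloured by group. For every gene drawn the dark green OVA T points lie right of the light green B16 T points, and the brown B16 melanoma points right of the tan OVA melanoma points.

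The shared genes were not raised equally. The difference of the rises was called for 24 of 27: 14 rose more on the T side, among them Gbp2, Gbp4, Tgtp1 and Batf2, and 10 rose more on the melanoma side, among them Apol6, Gbp11, Apol9a, F830016B08Rik and Gbp10. Over all genes these shares were 40.5% and 28.7%. Ciita, Apol10b and Trim21 did not pass. In the direct fit 21 of 27 were higher in OVA T and 3 were higher in B16 melanoma (Gbp11, Apol6, Apol9a), where 45.7% and 41.9% of all genes were called. Gbp10, Herc6 and F830016B08Rik did not pass in the direct fit. Total counts in place of TMM move the median of all genes in this contrast by -0.33, and by CPM Ciita, called slightly higher in OVA T (0.29 ± 0.08), was slightly lower there. The smallest rise inside the class was that of Parp12 (0.81, melanoma). Just outside lay Apol9b (0.73 on the T side, 3.22 on the melanoma side) and Gbp7 (0.99 and 0.54).

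The OVA melanoma libraries held 9231 CPM of melanoma markers against 22215 in B16 melanoma. When melanoma libraries were scaled to these markers and T libraries to T cell markers, the median melanoma rise of all genes moved by -1.09 (log2), and 12 of the 27 genes were still shared: Iigp1c, Batf2, Irgm2, Irgm1, Apol10b, Igtp, F830016B08Rik, Apol9a, Gm4841, Gbp10, Gbp11 and Apol6. All 12 belong to the GTPase, guanylate-binding, apolipoprotein L and Batf2 members. The scaling lowered the melanoma rises of shared genes by nearly equal amounts. That of Igtp went from 2.72 to 1.63 and that of Gbp10 from 4.53 to 3.44. The 12 are thus the shared genes with the largest melanoma rises, and the scaling is no separate measurement of them. It takes melanoma-marker RNA per melanoma cell as equal in both melanoma groups, which was not tested. Under that scaling the melanoma rises of 5 shared genes, Ciita, Ifi47, Ifit3, Zbp1 and Parp12, turned to -0.19, -0.25, -0.24, -0.23 and -0.28.

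The 48 genes raised on the T side only came from 11 of the lists, with 10 other antiviral genes, 9 checkpoint, metabolic and death genes, 5 signalling factors, 5 p200 genes, and 4 each of the chemokines, guanylate-binding proteins and MHC class I genes. All 48 were higher in OVA T than in B16 melanoma by the direct fit (45.7% of all genes), and 45 of them were lower in B16 melanoma than in OVA melanoma (43.8% of all genes). The class rule uses the OVA T libraries and bars a melanoma rise, so both counts only describe the class. Gbp8, Wars1 and Ifi211 did not pass that last test. The OVA melanoma libraries held more macrophage, endothelial and T cell marker RNA than the B16 melanoma libraries, as given above, and the part of those cells in the melanoma values of these genes was not tested.

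Of 6 chemokines, 4 were in this class. Cxcl9, a ligand of the chemokine receptor CXCR3, stood at 1484, 1483 and 1513 CPM in OVA T and at 116, 112 and 110.1 CPM in B16 T. In B16 melanoma it stood at 7.61, 7.88 and 7.02 CPM and in OVA melanoma at 45.8, 45.8 and 46.4 CPM. It was thus high in OVA T alone, rising by 3.79 ± 0.02 on the T side with a melanoma change of -2.79 ± 0.06 (edgeR adjusted p = 1.9e-36 and 1.4e-25). Cxcl10, of the same receptor, rose by 3.39 on the T side to 1620.1 ± 9.10 CPM, while its B16 and OVA melanoma levels were nearly the same, 95.2 ± 0.974 and 94.4 ± 3.33 CPM. Its melanoma change was -0.17 with TMM and 0.0041 with total counts. Cxcl11 rose by 3.90 on the T side, from 2.01 to 29.4 CPM.

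Cd274, which encodes PD-L1, stood at 773, 779.9 and 781 CPM in OVA T over 90.0 ± 2.80 in B16 T. It was also well detected in B16 melanoma (117, 120.2 and 124 CPM) but no higher there than in OVA melanoma (136, 138 and 136 CPM), so its T rise was 3.17 ± 0.02 and its melanoma change -0.36 ± 0.02. Ido1 averaged 4.87 CPM in OVA T and had 0 counts in B16 melanoma, at least 103-fold higher. The protease inhibitors Serpina3f and Serpina3g rose by 3.07 and 2.35 on the T side, to 177 and 399 CPM, against 1.05 and 0.372 CPM in B16 melanoma. Icam1, an adhesion molecule of endothelium and leukocytes, rose by 0.83 on the T side and was at 1311 CPM in OVA T and 1.09 CPM in B16 melanoma. Of the 20 checkpoint, metabolic and death genes, 9 were T-side only.

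**Figure D5:**
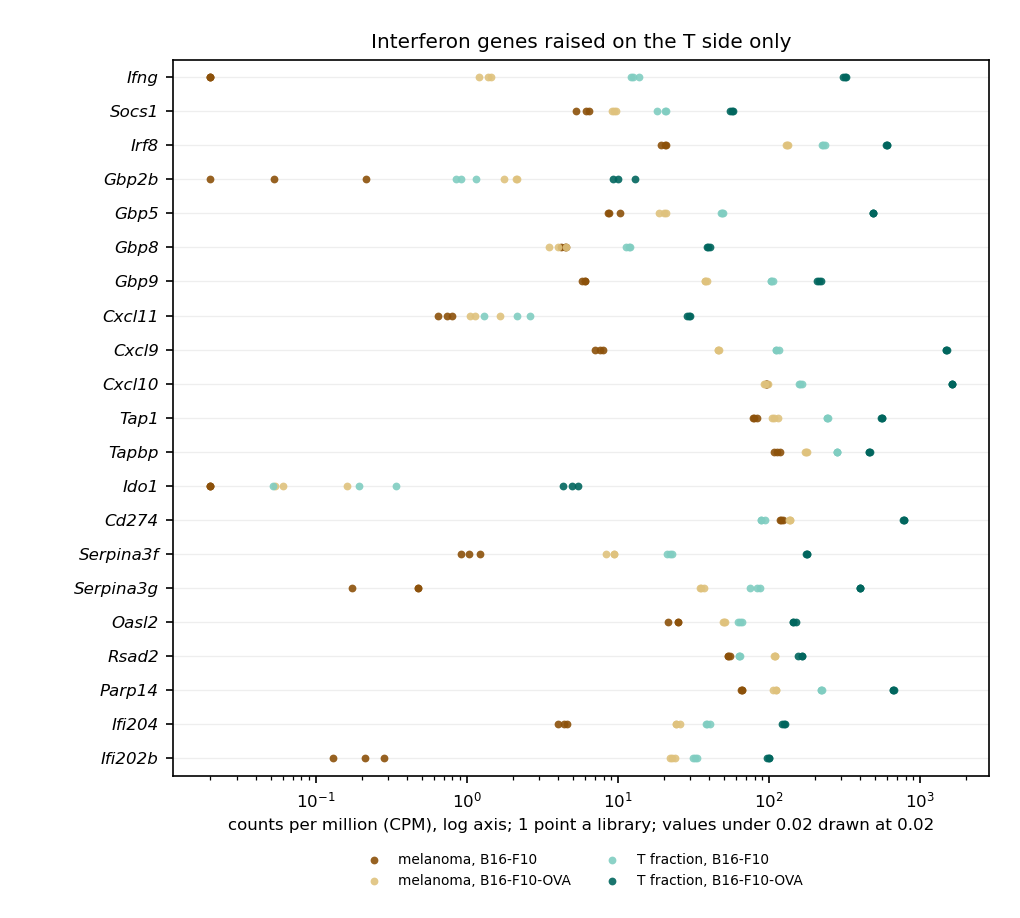
CPM (log axis) of 21 of the 48 T-side genes in all 12 libraries, 1 point a library, coloured by group; values under 0.02 are drawn at 0.02. The OVA T points lie farthest right for all 21, and Ifng and Ido1 have 0 counts in B16 melanoma.

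Among the guanylate-binding proteins the T-side members were Gbp2b, Gbp5, Gbp8 and Gbp9. Gbp5, which promotes inflammasome assembly, stood at 484, 485 and 488 CPM in OVA T, at 48.6 ± 0.925 in B16 T, at 19.7 ± 1.10 in OVA melanoma and at 9.20 ± 0.988 in B16 melanoma. Its rise of 3.38 on the T side was close to that of the shared Gbp2, 3.46, whereas the melanoma rises of these 2 family members were -1.26 and 1.40. Of 17 signalling factors, 5 were T-side only: the feedback inhibitor Socs1 rose by 1.58, Irf8 by 1.45 and the MHC class I activator Nlrc5 by 0.82, with melanoma changes of -0.83, -2.87 and -0.28, and Socs3 and Usp18 completed them. Of 11 p200 family genes, which sense DNA, 5 were in this class, with Ifi204 at 125 ± 3.06 CPM in OVA T and 4.32 ± 0.281 in B16 melanoma. Of 39 other antiviral genes 10 were too, Rsad2 (viperin) among them with a T rise of 1.40 and a melanoma change of -1.19.

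Of 25 presentation genes 21 (84.0%) were in no class, close to the 88.9% of all genes. Of 19 MHC class I genes 0 were shared and 4 were T-side only (Tap1, Tap2, Tapbp and H2-T23). The peptide transporter Tap1 rose by 1.25 on the T side to 555 ± 4.13 CPM. H2-K1, a classical class I heavy chain, stood at 1351, 1342 and 1345 CPM in OVA T and at 1359, 1368 and 1359 CPM in B16 T. In B16 melanoma it stood at 26.5, 26.9 and 24.8 CPM, below the 542 ± 8.13 CPM of OVA melanoma. The T groups thus hardly differed (0.04 ± 0.01), and B16 melanoma was far lower than any other group. B2m, the class I light chain, averaged 302 ± 5.56 CPM there against 779 to 1756 CPM in the other groups, and the immunoproteasome subunit Psmb8 8.60 against 54.0 to 154 CPM. All 6 MHC class II genes were lower in B16 melanoma than in OVA melanoma beyond 1.5-fold (background 29.6%) and 0 rose beyond it on either side, although Ciita was shared. The invariant chain Cd74 stood at 45.1 CPM in B16 melanoma and 316 CPM in OVA T.

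Nmi and Ifi27 alone were raised on the melanoma side only, a share of 1.14% against 7.77% of all genes. Ifi27 stood at 126, 126 and 127 CPM in B16 melanoma and at 60.5, 59.4 and 57.1 CPM in OVA melanoma, and between 44.4 and 52.4 CPM in all 6 T libraries. Its melanoma rise was 0.92 ± 0.03 and its T change -0.11 ± 0.04. Nmi, an interferon-inducible adaptor protein, rose by 0.73 ± 0.06 on the melanoma side and by 0.11 ± 0.06 on the T side (edgeR adjusted p = 0.16). Neither rise held when libraries were scaled to the markers, where the melanoma values were -0.17 for Ifi27 and -0.36 for Nmi, and the class then held 0 genes.

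Of the 99 members in no class, 69 were called lower in B16 melanoma than in OVA melanoma (43.8% of all genes), and 94 were higher in OVA T than in B16 melanoma by the direct fit (45.7% of all genes). They are what the class rule left over, so these counts are a description. Their T rises ran from -1.28 to 2.30 with a median of 0.36, and their melanoma rises had a median of -1.08. With the main scaling, part of this class was raised on both sides by less than the limit. Tested against no change, 49 members were higher in both rises, where 7.26% of all genes were, and 22 of them were not shared beyond 1.5-fold. Ifit2, of the family of Ifit3, was such a gene, with a T rise of 1.17 ± 0.04 and a melanoma rise of 0.11 ± 0.04, at 63.9 ± 0.526 CPM in OVA T and 41.7 ± 0.724 in B16 melanoma. Parp11 rose by 0.54 and 0.69, and it was higher in B16 melanoma, 31.2 ± 1.34 against 12.2 ± 0.426 CPM. Scaled to cell markers, the melanoma rises of these 22 genes were below 0, except that of Apol9b (2.13). Those of Ifit2 and Parp11 came to -0.98 and -0.40.

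Genes that only OVA T and B16 melanoma share were sought by a stricter rule: higher by more than 1.5-fold in both groups than in both other groups, 4 contrasts in all. Of 18562 genes 33 (0.178%) met it, and 13 of the 33 (39.4%) were interferon-pathway genes, which is 7.39% of the 176 tested. The 13 were Apol6, Apol9a, Apol10b, Gbp10, Gbp11, Gm4841, F830016B08Rik, Igtp, Irgm1, Irgm2, Batf2, Herc6 and Ifit3. Because the pair was chosen with raised interferon genes in both groups known, these shares describe the set and are no independent support. The rule uses contrasts across cell fractions, for which marker scaling is not defined. In its within-fraction part, 11 of the 13 kept both rises beyond 1.5-fold under that scaling, and the melanoma rises of Herc6 and Ifit3 came to 0.17 and -0.24. Of the 33, 12 were predicted or unnamed genes. One of these, ENSMUSG00000134402, carries the symbol Gm12250 and averaged 131 CPM in OVA T and 32.1 in B16 melanoma, against 15.2 and 6.08 CPM in B16 T and OVA melanoma. Predicted genes that overlap other genes can divide reads with them, so their values are uncertain.

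A further 10 named genes outside the interferon lists joined them: Slc9b2, Lrrtm2, Dnah10, Otos, Col9a3, Trp53inp1, Prelid2, Stxbp5, Nampt and Noc4l. Of these, Otos and Dnah10 had low levels, 0.99 and 1.97 CPM in B16 melanoma and 0.70 and 1.16 CPM in OVA T. Nampt, the rate-limiting enzyme of NAD salvage, stood at 259, 265 and 263 CPM in B16 melanoma and at 204, 212 and 213 CPM in OVA T. The references held 139, 133 and 134 CPM (OVA melanoma) and 99.7, 96.1 and 92.6 CPM (B16 T). No library of the pair overlapped a reference library, with rises of 1.18 ± 0.03 on the T side and 0.77 ± 0.02 on the melanoma side. Trp53inp1, a p53 target that promotes autophagy and cell death, stood at 129.8, 131 and 124 CPM in B16 melanoma, 113, 118 and 110.3 CPM in OVA T, and between 54.6 and 57.5 CPM in the 6 reference libraries. Its rises were nearly equal, 1.08 ± 0.03 and 1.00 ± 0.03, with a difference of 0.08 ± 0.05 (edgeR adjusted p = 0.12). Stxbp5 (tomosyn), a regulator of vesicle fusion, rose by 0.84 and 0.85, and Prelid2 by 1.33 on each side. Noc4l, a ribosome assembly factor, rose by 0.80 and 0.77. Under marker scaling the melanoma rises of Nampt, Stxbp5, Trp53inp1 and Noc4l were -0.32, -0.24, -0.087 and -0.32. The median melanoma rise of all genes moved by -1.09 there, so the 1.33 of Prelid2 is not known to stay beyond 1.5-fold.

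The mirror of this rule, lower in both groups than in both others, held 111 genes (0.598%) and 0 interferon genes. It held 21 of the 29 keratin genes tested and all 16 tested keratin-associated proteins, the structural proteins of skin and hair. These 37 genes summed to 118 ± 1.27 CPM in OVA melanoma and 25.1 ± 1.77 in B16 T, but to 0.568 ± 0.293 in B16 melanoma and 0.273 ± 0.0579 in OVA T. The keratinocyte list gave 12.3, 2.95, 0 and 0.463 CPM, with the groups in that order. All 3 of its tested genes met the mirror rule themselves, so these values describe the set and add no independent support. Mmp12, macrophage elastase, averaged 33.5 and 11.9 CPM in OVA melanoma and B16 T against 0.847 and 2.64 in B16 melanoma and OVA T. Ccl22, a chemokine of dendritic cells, averaged 26.2 and 13.5 against 0.0287 and 5.37 CPM, and the stress hormone Fgf21 38.9 and 5.97 against 3.34 and 0.326 CPM.

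The mirror also held Rn18s-rs5, Lars2 and Rn7sk, singled out after their values were seen. Rn18s-rs5, a ribosomal RNA-related sequence, averaged 12138 and 10481 CPM in OVA melanoma and B16 T, against 5593 and 3156 in B16 melanoma and OVA T. Lars2, the mitochondrial leucyl-tRNA synthetase, averaged 1588 and 1465 against 575 and 599 CPM. The small nuclear RNA Rn7sk averaged 21.7 and 8.44 against 3.89 and 2.89 CPM. Transcripts of the mitochondrial genome took 6.50% ± 0.0741 and 3.31% ± 0.0824 of counts in the references and 1.76% ± 0.0489 and 2.78% ± 0.0145 in the pair. The pair was thus low in these transcripts as well as high in the interferon genes above, and the part of RNA quality or of tissue carried along in the shared calls was not tested.

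Outside the interferon lists the 2 groups differed by cell type. All 17 T cell effector genes were higher in OVA T (background 45.7%), with a median log2 of 9.36, or 8.99 with genes at 0 counts set to their bound. Gzmb was 14.30 ± 0.50 higher, or 13.96 to 14.74 with 1 library left out, and Ccl5, a T cell chemokine, 6.45 ± 0.14. All 14 pigment cell genes were lower in OVA T, with a median of -7.32. Tyrp1, a melanin-synthesis enzyme, averaged 6696 CPM in B16 melanoma and 26.0 in OVA T. Of 15 mitosis and replication genes 14 were higher in B16 melanoma (background 41.9%), and the replication licensing factor Mcm2 averaged 309 against 49.1 CPM. Among the 10 largest differences toward OVA T, Ifng and Trbc2 are T cell genes and Emcn, Cyyr1, Bcl6b, Myct1, Kdr and Erg are known from endothelium. Emcn and Cyyr1 had 0 counts in B16 melanoma and were at least 7347-fold and 6487-fold higher, and the T cell receptor constant gene Trbc2 at least 4019.7-fold.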

How the data were processed

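Poly(A) RNA of 12 libraries was sequenced. The authors deposited raw counts per Ensembl gene (77175 genes, 21805 without a symbol), made with HISAT2 2.0.5 and featureCounts 1.6.0 on GRCm39, per the submitters' processing notes; strand and multi-mapping settings are not given in the sources used here. From these, CPM used library totals. Tests used R 4.3.3 and edgeR 4.0.16: filterByExpr, TMM, quasi-likelihood tests (SE from the fit's information matrix), Benjamini-Hochberg adjustment over all genes, threshold 0.05. The direct comparison was fitted on 6 libraries (17633 genes) and the rises on 12 (18562 genes). Folds of the T rise were checked on simulated data in which few genes changed. That simulation held no shift in cell make-up between groups and did not cover the direct comparison. Of 314 listed symbols 313 were found. The comparison, gene lists and classes were chosen with earlier results of these data known. Named genes were the 4 given markers, up to 4 of each list and class by fold, the leading genes shared by the 2 groups alone (at least 5 CPM, no predicted genes), the 10 extremes of the direct comparison and up to 4 of each other pathway list by adjusted p; others named were chosen after their values were seen. Replicates differed by more than sampling noise (chi-square per degree of freedom 1.51 to 1.77). Alternatives were other scalings, filters, folds, DESeq2 1.42.0, limma-voom (limma 3.58.1) and left-out libraries. 1 gene of the lists is not reported here. Folds against 0 counts are bounds from 3 counts over the group, for counting error only.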

Additional observations from a re-analysis of the deposited data

Results flagged for a closer look

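The line label acted in opposite directions in the 2 cell fractions for 26 of the shared interferon genes and for 5 named genes outside the lists: higher with the OVA label in T libraries, higher with the B16-F10 label in melanoma libraries. The difference of the label effects (OVA over B16-F10 in T libraries minus the same in melanoma libraries, log2) was tested in edgeR as an interaction over 12 libraries, and every value below passed with adjusted p under 0.05 (27.7% of all genes passed in this direction). The genes were chosen for a rise on both sides, which fixes that they pass, so the values are a description. Differences above 4 were 8.20 for Apol6, 7.74 for Gm4841, 7.51 for Gbp10, 6.97 for Gbp11, 5.34 for Batf2, 5.16 for Apol10b, 5.10 for F830016B08Rik, 4.96 for Igtp, 4.86 for Gbp2, 4.82 for Iigp1c, 4.73 for Irgm1, 4.66 for Apol9a, 4.26 for Irgm2 and 4.07 for Gbp6. From 2 to 4 stood 3.93 for Gbp4, 3.78 for Tgtp2, 3.68 for Tgtp1, 3.38 for Irf1, 2.81 for Ifi47, 2.59 for Il12rb1, 2.57 for Trim21, 2.25 for Herc6 and 2.03 for Ifit3. Smaller ones were 1.99 for Zbp1, 1.82 for Parp12 and 1.79 for Ciita. Outside the lists the values were 2.66 for Prelid2, 2.09 for Trp53inp1, 1.96 for Nampt, 1.69 for Stxbp5 and 1.57 for Noc4l. Scaling to cell markers moved the median of this difference over all genes by -1.13. Under it the melanoma part turned below 0 for 9 of these genes: Ciita, Ifi47, Ifit3, Zbp1, Parp12, Trp53inp1, Nampt, Stxbp5 and Noc4l. With that scaling the 2 label effects of these 9 genes no longer had opposite signs. The part of other cells in the OVA melanoma libraries in these values was not tested. For Gbp4 and Trim21 the melanoma part stayed above 0, at 0.06 and 0.15, but was not called (edgeR adjusted p = 0.061 and 0.15).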

How the results depend on the processing

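Alternative values were taken for 188 fold changes of the genes named by rule. Other genes in the text, such as Ifi47, Tgtp1, Gbp4, Ifit2 and Parp11, were not in this set. Of 3681 such values, 3648 kept direction and side of the threshold, 19 lost the call, 2 gained it and 12 reversed. These values include the fits with 1 library left out, and 10 of the 12 reversals came from marker scaling. The call here is against no change. Irf1 and Gbp2, with melanoma rises of 0.26 and 0.31 under marker scaling, thus count as kept although they left the shared class. Total counts turned the melanoma rise of Cxcl10 to 0.0041 and of H2-T23 to 0.0913. Marker scaling turned it to -0.19 for Ciita, -0.36 for Nmi, -0.24 for Ifit3, -0.23 for Zbp1, -0.17 for Ifi27, -0.28 for Parp12, -0.087 for Trp53inp1, -0.24 for Stxbp5, -0.32 for Nampt and -0.32 for Noc4l. Among genes outside the set, marker scaling turned it to -0.25 for Ifi47, -0.98 for Ifit2 and -0.40 for Parp11, with others not listed here. It also left 547 genes in the melanoma rise (6372 with TMM), 14865 and 562 in the difference of rises toward the T and melanoma side (7515 and 5328), 433 and 15588 in the interaction (5147 higher, 7670 lower), 12 shared interferon genes and 0 on the melanoma side only. Testing against no change gave 49 shared, 98 T-side and 4 melanoma-side interferon genes, 408 genes high in the pair (25 interferon) and 466 low. The 2-fold test gave 27 T-side, 0 melanoma-side, 14 high and 72 low, and direct counts of 5097 toward OVA T and 3320 toward B16 melanoma (8062 and 7386 against no change). DESeq2 gave 21 genes high in the pair and 1 melanoma-side gene, and no filter also 1. Presence limits of 5 and 0.5 CPM put 19 genes in OVA T alone. Apart from marker scaling, the fold tested and these cases, the causes were not tested.

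Leaving out 1 library gave 26 to 27 shared, 42 to 50 T-side and 1 to 3 melanoma-side genes (1 without OVA melanoma replicate 1), 28 to 35 high in the pair (12 to 14 interferon), 102 to 116 low, 7951 to 8309 and 7322 to 7499 in the direct comparison, 3453 to 4052 in the T rise, 6125 to 6740 in the melanoma rise, 7161 to 7610 and 5161 to 5549 in the difference of rises, and 5019 to 5215 and 7460 to 7721 in the interaction. Same-numbered libraries of different groups showed no common deviation (correlations -0.0454 to 0.0599, 0 of 18 over 0.1). Because replicates differed by little more than sampling noise, this could not exclude a pairing by mouse. With the replicate number as a block the counts were 27, 47 and 2 for the classes, 32 and 110 for the pair, and 7957 and 7296 in the direct comparison, and no count moved by over 1.5 times.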
